A study of Mus musculus with 6 samples.

Results

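The 5 mature microRNAs (miRNAs) described here, mmu-miR-320-3p, mmu-miR-484, mmu-miR-877-5p, mmu-miR-877-3p and mmu-miR-1981-5p, are made without the nuclear cutting enzyme Drosha or come from short introns. The species prefix is left out below. They were chosen by name and are 5 of the 1899 mature miRNA entries in the deposited tables. All 5 had reads in all 6 libraries. They were counted by small RNA sequencing of mouse embryonic stem cells of strain 129/Ola, kept in serum medium with leukemia inhibitory factor on gelatin-coated dishes. The 6 groups had 1 library each. They were untreated wild-type (WT) cells, WT cells treated with retinoic acid (RA; 1 µm as the labels write it, read here as µM), untreated Wt1 knockout (KO) cells, RA-treated KO cells, and KO cells given 1 µg/ml doxycycline (dox), which induces Wt1, for 12 h or for 24 h. Wt1 encodes a zinc finger transcription factor, and RA drives stem cells to differentiate. The sources used here give neither the duration of RA treatment, nor the clone behind each library, nor the line that carries the inducible Wt1, so a difference between lines cannot be told apart from a treatment.

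Most miRNAs are cut first in the nucleus by Drosha with its partner DGCR8 and then in the cytoplasm by Dicer. miR-320 and miR-484 are known from mouse embryonic stem cells as miRNAs that need Dicer but not DGCR8. The short miR-320 transcript carries a cap and is itself the hairpin that Dicer cuts. miR-877 is a mirtron: the spliceosome cuts out a short intron, the lariat is opened, and the intron folds into the hairpin that Dicer receives. Because the pathways differ, these miRNAs are often followed apart from the canonical ones.

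The mature sequences as deposited are shown because they set which arm of each hairpin was counted. The capitals mark the seed, bases 2 to 8, which pairs with target mRNAs.
miR-320-3p: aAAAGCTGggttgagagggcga
miR-484: tCAGGCTCagtcccctcccgat
miR-877-5p: gTAGAGGAgatggcgcaggg
miR-877-3p: tGTCCTCTtctccctcctccca
miR-1981-5p: gTAAAGGCtgggcttagacgtggc
No seed was shared among the 5. The seeds of miR-320-3p, miR-484 and both miR-877 arms occurred in no other entry, and that of miR-1981-5p also occurred in miR-1971, which had 0 reads in the 6 libraries. The 5 sequences are 20 to 24 bases long with a GC content of 54.5% to 65.0%.

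RefSeq's table for GRCm38.p6 held 4 of the 5 mature sequences, and each equalled the deposited sequence. The authors' genome build is not given in the sources used here, so the positions below come from this match and from GENCODE M21 on the same build. The hairpins are shown because their ends, set against annotated introns, show whether a hairpin is a whole intron. Capitals mark the mature arms.
Mir484: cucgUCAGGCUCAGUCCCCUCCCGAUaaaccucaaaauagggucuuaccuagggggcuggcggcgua
Mir877: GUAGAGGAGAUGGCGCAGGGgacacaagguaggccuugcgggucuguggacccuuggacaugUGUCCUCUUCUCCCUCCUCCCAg
Mir1981: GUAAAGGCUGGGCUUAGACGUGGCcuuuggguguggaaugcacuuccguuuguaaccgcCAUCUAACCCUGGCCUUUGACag
The 85 bases of Mir877, at chr17:35960730-35960814 on the minus strand, were exactly intron 12 of the 22 introns of Abcf1, which encodes an ATP-binding protein of translation initiation. The 82 bases of Mir1981, at chr1:184822407-184822488 on the minus strand, were exactly intron 5 of the 7 introns of a protein-coding transcript of Marc2, a gene of the mitochondrial outer membrane. Both hairpins therefore start with the GU and end with the AG of an intron, and in both the 5p arm begins at base 1 of the intron. The miR-877-3p arm ends 1 base before the intron's last base, at base 84. Of the 1005 hairpins in the RefSeq table, 16 (1.59%) had both ends at the ends of an annotated intron on the same strand, and 30 (2.99%) started with GU and ended with AG.

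The Mir484 hairpin was not a whole intron by this measure. Mir484, at chr16:14159626-14159692 on the plus strand, starts with CU and ends with UA. It lies 3582 bases before the start of Nde1, a gene of the centrosome and of dynein transport, on the same strand, and within the annotated span of Marf1 on the opposite strand. Mir320, at chr14:70443510-70443591 on the plus strand in GENCODE M21, lies 62 bases from the start of Polr3d, a subunit gene of RNA polymerase III, which is transcribed in the opposite direction. The mRNAs of Abcf1, Marc2, Nde1 and Polr3d were not measured in these small RNA libraries, nor was that of Wt1, so the knockout and its induction could not be checked.

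Depth differed 73.0-fold, from 83626 uniquely matched reads in RA-treated KO to 6106104 in RA-treated WT, so values in RA-treated KO are the least precise. Of the 1899 entries, 351 averaged 50 or more reads per library and were analysed, and all 5 members passed. Levels are given as normalised CPM, depth-scaled counts adjusted by TMM (trimmed mean of M values), with exact 95% Poisson intervals in brackets. These and all other intervals cover counting error only and treat each read as independent. PCR reads without molecular identifiers are not independent molecules, so the intervals may be too narrow even for that error. With 1 library per group there is no replicate check and no test, and each comparison is between libraries, not between conditions. The size rule calls a difference where the log2 ratio is 1 or more in either direction and the 95% counting interval leaves out 0. The 6 stem cell markers of the miR-290 cluster all had reads in every library, with a summed share of 10.8% to 17.2% of reads without RA, 0.603% in RA-treated WT and 7.05% in RA-treated KO. The 3 primed-state markers of the miR-302 cluster took 0.0769% in untreated WT, 0.0124% in untreated KO, 0.0239% and 0.0626% at 12 h and 24 h of dox, and 0.00198% and 0.00957% in RA-treated WT and KO. The 3 markers of HOX loci took 0.0144% to 0.0300% without RA, 10.85% in RA-treated WT and 2.36% in RA-treated KO. In the RA-treated KO library the 4 mesenchyme markers, 3 of them with reads, held 0.585% of reads there against at most 0.0655% in the other libraries, and the entries reported to overlap ribosomal RNA, miR-6236 and miR-6240, held 0.270% against at most 0.0720%. Of the 6 blood markers, 2 or 3 had reads in each library, with a sum of 0.0846% in untreated WT, 0.235% in untreated KO, 0.387% and 0.306% at 12 h and 24 h of dox, 0.00657% in RA-treated WT and 0.0287% in RA-treated KO, and miR-451a was at 0 in all 6. The part of these cells or of RNA quality in any result below was not tested.

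The summed share of the 5 miRNAs was 0.367% in untreated WT, 0.247% in untreated KO, 0.204% and 0.225% at 12 h and 24 h of dox, 0.292% in RA-treated WT and 0.246% in RA-treated KO. miR-320-3p and miR-484 supplied 90.3% to 94.98% of these reads. Among the 5 members, miR-320-3p and miR-484 were thus abundant and the intron-derived miRNAs scarce. miR-484 ranked between 43 and 58 of the 351 miRNAs and miR-320-3p between 57 and 99. miR-1981-5p ranked between 175 and 268, miR-877-3p as low as 328 and miR-877-5p between 262 and 303. Of the 35 ratios that the 5 miRNAs gave in 7 comparisons, 4 passed the size rule, 1 higher and 3 lower. Over all 351 miRNAs 652 of 2457 such ratios (26.5%) passed, most often in the comparisons with RA, where all 4 of the members' calls also lay.

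**Figure D1:**
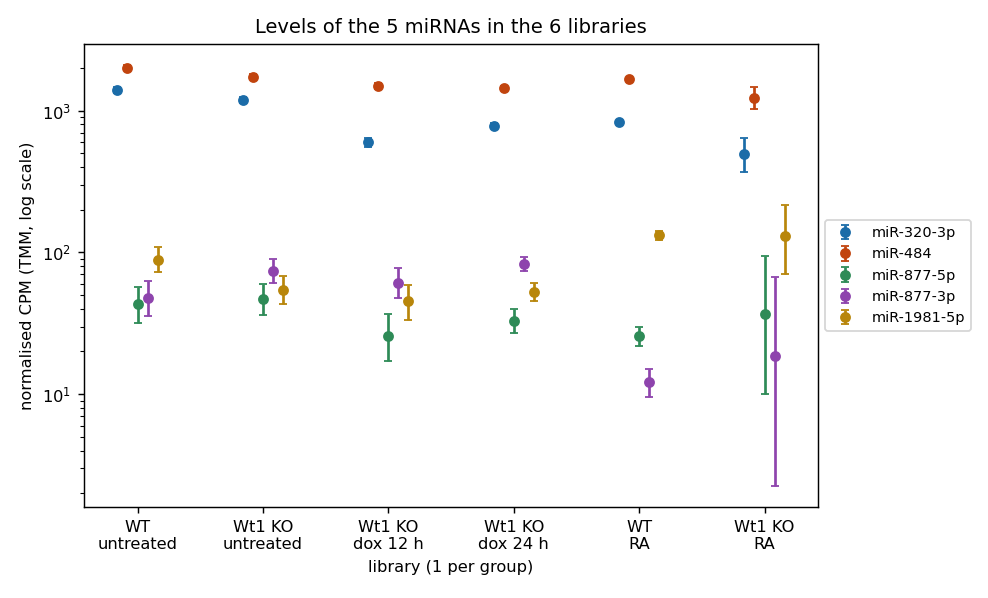
Normalised CPM (log axis) of the 5 miRNAs in the 6 libraries, 1 library per group; points are the levels and bars exact 95% Poisson intervals of the counts. miR-484 lies between 1231 and 2009 in every library, while miR-877-3p drops to 12.1 in RA-treated WT.

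miR-484 was the steadiest of the 5. It had 2189 reads in untreated WT, 2451 in untreated KO, 1679 and 4919 at 12 h and 24 h of dox, 11185 in RA-treated WT and 133 in RA-treated KO. In normalised CPM the order was 2009 [1926 to 2095] in untreated WT, 1737 [1669 to 1807] in untreated KO, 1671 [1640 to 1702] in RA-treated WT, 1483 [1413 to 1556] and 1446 [1406 to 1487] at 12 h and 24 h of dox, and 1231 [1031 to 1459] in RA-treated KO. Intervals of neighbours in this order overlap between untreated KO and RA-treated WT, between the dox libraries, and between dox at 24 h and RA-treated KO. As CPM of the total the order differed: untreated WT stayed highest at 2057, followed by RA-treated WT at 1832, RA-treated KO at 1590, untreated KO at 1386 and dox at 12 h and 24 h at 1368 and 1355. The highest level was 1.63 times the lowest, a log2 range of 0.70 against a median of 2.05 over the 351 miRNAs, and 16 of the 351 had a smaller range. Without RA-treated KO the range was 0.47, the median was 1.55, and again 16 miRNAs had a smaller range. Counting noise widens the ranges of miRNAs with few reads. In RA-treated KO the 351 miRNAs had a median of 16 reads, against 133 for miR-484. The range of miR-484 was not set against miRNAs of like abundance. miR-484 passed the size rule in none of the 7 comparisons.

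miR-320-3p, the capped hairpin's main arm, was highest in both untreated libraries. Its counts were 1523 in untreated WT, 1671 in untreated KO, 678 and 2664 at 12 h and 24 h of dox, 5540 in RA-treated WT and 53 in RA-treated KO. These equal 1398 [1329 to 1470] normalised CPM in untreated WT, 1184 [1128 to 1242] in untreated KO, 828 [806 to 850] in RA-treated WT, 783 [754 to 813] at 24 h and 599 [555 to 646] at 12 h of dox, and 491 [368 to 642] in RA-treated KO. The intervals of both untreated libraries lie above those of the other 4, while RA-treated WT overlaps dox at 24 h, and dox at 12 h overlaps RA-treated KO. This order depends on the scaling: as CPM of the total, untreated KO at 945 [899.9 to 991] overlapped RA-treated WT at 907 [884 to 932], and untreated WT alone, at 1431 [1360 to 1505], stood above the rest. Its log2 range of 1.498 was smaller than the median of the 351, and 110 miRNAs had a smaller range. The other arm, miR-320-5p, had 1 read in untreated KO, 1 in RA-treated WT and 0 elsewhere, so in untreated WT its share of the hairpin's reads was at most 0.242% (Clopper-Pearson upper limit).

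The ratio of miR-484 to miR-320-3p within a library needs no scaling, but it was chosen after the data were seen. How often other pairs of miRNAs split the libraries in this way was not examined. The ratio separated the untreated libraries from the rest. It was 1.44 [1.35 to 1.53] in untreated WT and 1.47 [1.38 to 1.56] in untreated KO. It was 2.48 [2.26 to 2.71] after 12 h of dox, 1.85 [1.76 to 1.94] after 24 h, 2.02 [1.955 to 2.085] in RA-treated WT and 2.51 [1.81 to 3.52] in RA-treated KO. The lowest bound of the 4 treated libraries, 1.76, lies above the highest bound of the untreated ones, 1.56. miR-320-3p was thus lower relative to miR-484 in every treated library, beyond these counting intervals.

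miR-877-5p and miR-877-3p are the arms of the same excised intron, and their levels followed different patterns. miR-877-5p had 47 reads in untreated WT, 66 in untreated KO, 29 and 112 at 12 h and 24 h of dox, 172 in RA-treated WT and 4 in RA-treated KO. Its levels ran from 46.8 [36.2 to 59.5] normalised CPM in untreated KO through 43.1, 37.0 and 32.9 in untreated WT, RA-treated KO and dox at 24 h to 25.7 [22.0 to 29.8] in RA-treated WT and 25.6 [17.2 to 36.8] at 12 h of dox. Every neighbouring pair in this order has overlapping intervals, and 29 of the 351 miRNAs had a smaller range than its 0.87. Without RA-treated KO, where it has 4 reads, 62 of the 351 did.

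miR-877-3p had 52 reads in untreated WT, 105 in untreated KO, 69 and 282 at 12 h and 24 h of dox, 81 in RA-treated WT and 2 in RA-treated KO. Its level was 82.9 [73.5 to 93.2] normalised CPM at 24 h of dox, 74.4 [60.9 to 90.1] in untreated KO, 61.0 [47.4 to 77.2] at 12 h of dox, 47.7 [35.6 to 62.6] in untreated WT, 18.5 [2.24 to 66.9] in RA-treated KO and 12.1 [9.61 to 15.0] in RA-treated WT. Neighbours in this order overlap, but the interval of RA-treated WT lies below those of all 4 libraries without RA. The log2 range of 2.77 was the widest of the 5 members, with 233 of the 351 miRNAs below it.

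miR-1981-5p, from the Marc2 intron, was highest in both RA libraries. It had 97 reads in untreated WT, 77 in untreated KO, 51 and 180 at 12 h and 24 h of dox, 882 in RA-treated WT and 14 in RA-treated KO. Its level was 132 [123 to 141] normalised CPM in RA-treated WT, 130 [70.8 to 217] in RA-treated KO, 89.0 [72.2 to 109] in untreated WT, 54.6 [43.1 to 68.2] in untreated KO, and 52.9 [45.5 to 61.2] and 45.1 [33.6 to 59.2] at 24 h and 12 h of dox. The 3 KO libraries without RA overlap each other and lie below untreated WT, and RA-treated KO, known from 14 reads, overlaps untreated WT. The other arm, miR-1981-3p, had 2 to 113 reads per library and a mean of 38.5, below the minimum.

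**Figure D2:**
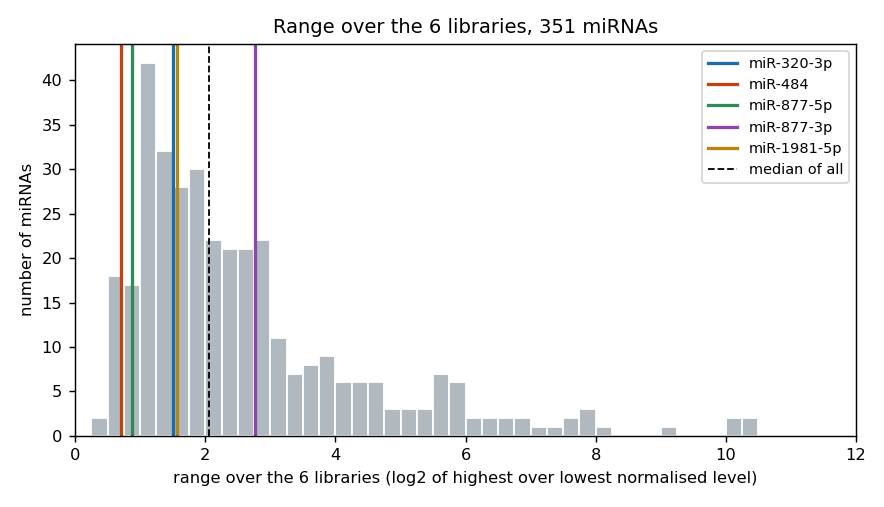
Histogram of the range over the 6 libraries, as log2 of the highest over the lowest normalised level, for the 351 miRNAs analysed, with lines at the 5 members and a dashed line at the median of 2.05. miR-484 at 0.70 and miR-877-5p at 0.87 lie at the narrow end, and miR-877-3p at 2.77 lies above the median.

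RA-treated and untreated WT cells were compared to describe the miRNAs of differentiating cells. miR-877-3p was lower with RA, at 12.1 against 47.7 normalised CPM, a log2 ratio of -1.98 [-2.50 to -1.45], which is 3.96-fold. In such bulk libraries fewer cells of a type and less RNA per cell cannot be told apart, and the stem cell markers held 0.603% of reads with RA against 10.8% without. miR-877-3p was the only member past the size rule in this comparison, in which 46.4% of the 351 miRNAs passed, 24.2% lower and 22.2% higher. miR-877-5p, from the same intron, was at -0.76 [-1.22 to -0.25], miR-320-3p at -0.76 [-0.84 to -0.67] and miR-484 at -0.27 [-0.33 to -0.20]. miR-1981-5p, from another whole-intron hairpin, went the other way, at 0.56 [0.26 to 0.88]. The median of the 5, which include both arms of miR-877, was -0.76 against 0.13 for the 351. The 2 other non-canonical miRNAs that were analysed, described below, had positive values. miR-3102-3p was at 0.38 [0.12 to 0.66] and miR-1839-5p at 0.97 [0.59 to 1.39].

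The arms of miR-877 were therefore compared within each library, where scaling plays no part. The 5p arm held 68.0% [61.8 to 73.7] of the hairpin's 253 reads in RA-treated WT, against 47.5% [37.3 to 57.8] of 99 in untreated WT (exact Clopper-Pearson intervals). It held 38.6% [31.3 to 46.3] in untreated KO, 29.6% [20.8 to 39.7] and 28.4% [24.0 to 33.2] at 12 h and 24 h of dox, and 66.7% [22.3 to 95.7] of only 6 reads in RA-treated KO. The share in RA-treated WT lies above the intervals of all 4 libraries without RA, and in RA-treated KO it cannot be placed at this depth. The 5p to 3p ratio was 2.34-fold higher with RA in WT, a log2 change of 1.23 [0.54 to 1.91]. Among the 76 hairpins with both arms analysed, whose median change was 0.23, 18.4% shifted by the same size rule, 10.5% toward the 5p arm and 7.89% toward the 3p arm, and 6 shifted further toward 5p than miR-877.

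**Figure D3:**
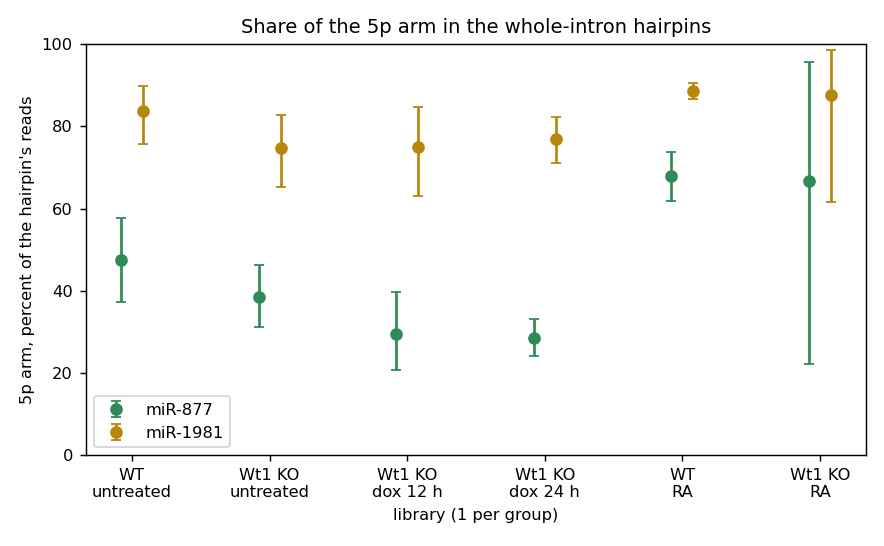
Share of the 5p arm in the reads of the miR-877 and miR-1981 hairpins (percent) in the 6 libraries, 1 per group; bars are exact 95% Clopper-Pearson intervals. The miR-877 share is 68.0% in RA-treated WT and 28.4% to 47.5% without RA, and the interval of RA-treated KO spans 22.3% to 95.7%.

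**Figure D4:**
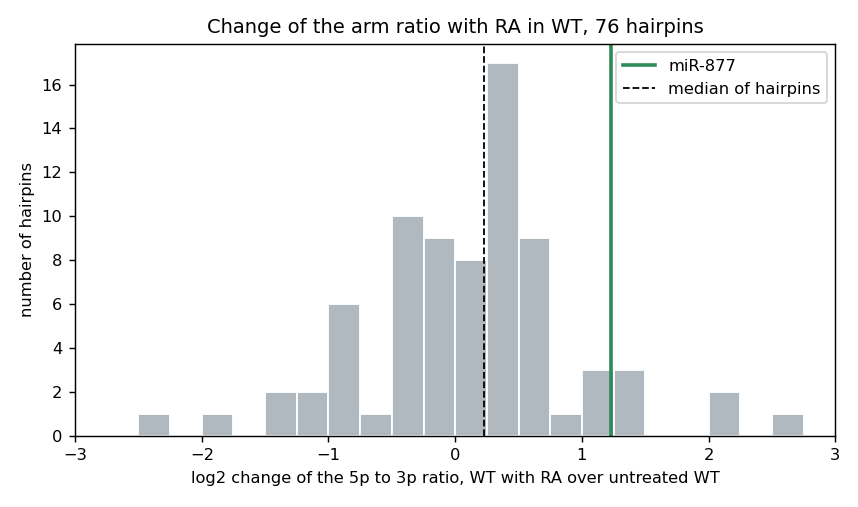
Histogram of the log2 change of the 5p to 3p ratio between RA-treated WT and untreated WT for 76 hairpins with both arms analysed. The solid line marks miR-877 at 1.23 and the dashed line the median of 0.23.

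In the miR-1981 hairpin the 5p arm prevailed throughout. Its share was 83.6% [75.6 to 89.8] in untreated WT, 74.8% [65.2 to 82.8] in untreated KO, 75.0% and 76.9% with dox, 88.6% [86.5 to 90.5] in RA-treated WT and 87.5% [61.7 to 98.5] of 16 reads in RA-treated KO. The log2 change of the arm ratio with RA in WT, 0.64 [-0.12 to 1.39], has an interval that includes 0. The share in RA-treated WT overlaps that of untreated WT and lies above those of the 3 KO libraries without RA.

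RA in KO cells gave 3 of the 4 calls, all from few reads. miR-1981-5p was higher with RA, at 130 against 54.6 normalised CPM, a log2 ratio of 1.29 [0.31 to 2.08] from 14 and 77 reads. miR-320-3p was lower, at -1.26 [-1.69 to -0.88] from 53 and 1671 reads, and miR-877-3p was at -1.69 [-5.07 to -0.12] from 2 and 105 reads. In this comparison 46.2% of the 351 miRNAs passed, 23.6% higher and 22.5% lower. miR-484 was at -0.49 [-0.76 to -0.25] and miR-877-5p at -0.18 [-2.26 to 1.09], and both signs flip as CPM of the total, to 0.20 and 0.52. As CPM of the total, which moves the median of all miRNAs by 0.70, miR-320-3p was at -0.56 and miR-877-3p at -0.996, and neither passed the size rule. By the median of ratios miR-877-3p was at -1.52 with an interval that includes 0. The call of miR-1981-5p ended, at 0.94, when scaling used all miRNAs without a minimum count.

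The RA response of Wt1 KO minus that of WT was within the size rule for all 5 members. It was 0.73 [-0.13 to 1.59] for miR-1981-5p, -0.50 [-0.90 to -0.10] for miR-320-3p and -0.23 [-0.48 to 0.04] for miR-484. For miR-877-5p and miR-877-3p, with 4 and 2 reads in RA-treated KO, the intervals ran from -0.87 to 2.03 and from -1.58 to 2.17. Of the 351 miRNAs, 38.2% passed the rule. As CPM of the total miR-320-3p and miR-484 changed sign, to 0.095 and 0.37, and miR-1981-5p passed the rule, at 1.33.

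**Figure D5:**
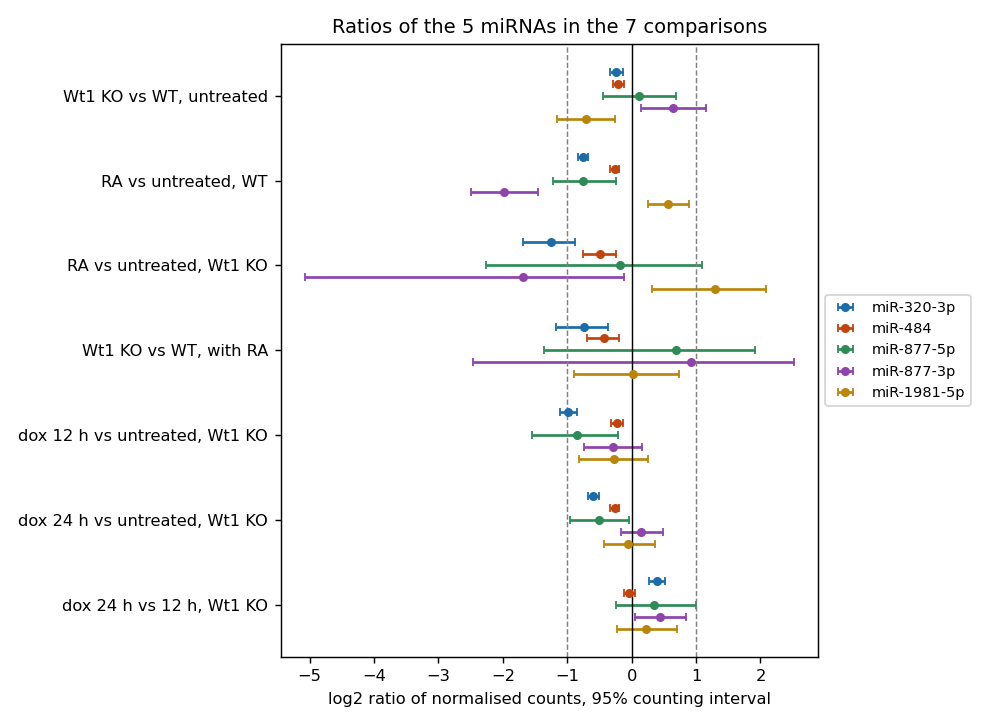
Log2 ratios of normalised counts of the 5 miRNAs in the 7 comparisons between libraries; bars are 95% exact conditional binomial intervals and dashed lines mark the size threshold of 1 in either direction. miR-877-3p at -1.98 with RA in WT lies past the threshold with its whole interval, and ratios with RA-treated KO have the widest intervals.

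With RA in both, KO and WT differed by less than the size rule for every member, in a comparison where 37.9% of the 351 miRNAs passed it. miR-320-3p was at -0.74 [-1.17 to -0.36] and miR-484 at -0.44 [-0.70 to -0.19]. miR-1981-5p was at 0.03 [-0.90 to 0.73], with 130 and 132 normalised CPM, and its sign flips with the minimum count used in scaling. The intervals of miR-877-5p, -1.36 to 1.91, and miR-877-3p, -2.46 to 2.51, exclude little. With scaling over all miRNAs without a minimum, miR-320-3p passed the rule, at -1.16.

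Untreated KO cells were set against untreated WT cells to describe the loss of Wt1. No member passed the size rule, against 27.6% of the 351 miRNAs. miR-320-3p and miR-484 were at -0.24 [-0.34 to -0.14] and -0.21 [-0.29 to -0.13], and as CPM of the total at -0.60 [-0.70 to -0.498] and -0.57 [-0.65 to -0.49]. miR-1981-5p was at -0.70 [-1.16 to -0.26], with 54.6 against 89.0 normalised CPM, and miR-877-3p at 0.63 [0.15 to 1.15], with 74.4 against 47.7. The value of miR-877-3p as CPM of the total was 0.27 [-0.21 to 0.79], which includes 0. miR-877-5p was at 0.11 [-0.44 to 0.69], and its sign flips as CPM of the total. As CPM of the total, which moves the median of all miRNAs by -0.36, miR-1981-5p was at -1.07 and passed the rule.

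Dox for 12 h and for 24 h was compared with untreated KO to describe the induction of Wt1, and both comparisons share that untreated library. A dox control in cells that lack the inducible gene is not used here. No member passed the size rule at either time, against 12.8% of the 351 miRNAs at 12 h and 9.4% at 24 h. miR-320-3p came nearest at 12 h, at 599 against 1184 normalised CPM, a log2 ratio of -0.98 [-1.11 to -0.85], and its value depended on the scaling: it was -0.77 as CPM of the total and -0.65 with the miR-290 and miR-302 clusters left out, and it passed the rule, at -1.02, when multi-matches were added to all miRNAs. At 24 h it was at -0.60 [-0.69 to -0.51], with -0.36 and -0.29 under the same CPM scalings, and between 24 h and 12 h at 0.39 [0.26 to 0.51]. miR-877-5p was at -0.86 [-1.55 to -0.22] at 12 h and -0.51 [-0.96 to -0.04] at 24 h. As CPM of the total these were -0.65 [-1.34 to -0.01] and -0.28 [-0.73 to 0.19], and with the clusters left out both intervals include 0, at -0.53 [-1.22 to 0.11] and -0.20 [-0.65 to 0.26].

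The other members lay nearer to 0 with dox. miR-484 was at -0.23 [-0.32 to -0.14] at 12 h and -0.27 [-0.34 to -0.19] at 24 h, and both signs flip, to 0.10 and 0.04, as CPM with the miR-290 and miR-302 clusters left out. miR-877-3p was at -0.28 [-0.75 to 0.16] and 0.15 [-0.17 to 0.49], and miR-1981-5p at -0.27 [-0.82 to 0.25] and -0.05 [-0.44 to 0.36], all with intervals that include 0. Leaving out those clusters also flips the signs of miR-877-3p at 12 h, to 0.045, and of miR-1981-5p at both times, to 0.06 and 0.26. Between 24 h and 12 h no member passed the rule, against 5.41% of the 351, and the 5 ratios ran from -0.04 for miR-484 to 0.43 for miR-877-3p. The share of the miR-877 5p arm was lower at 24 h of dox than in untreated KO, although the intervals of these shares overlap. The log2 change of the arm ratio was -0.66 [-1.21 to -0.12], which is under the size rule. At 12 h it was -0.57 [-1.33 to 0.19], which includes 0. Of the 76 hairpins, whose median change at 24 h was 0.096, 64 had a higher value than miR-877.

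The list of 16 other miRNAs of non-canonical origin gave little to set beside these values. It holds the other arms of members, further mirtrons, the small nucleolar RNA product miR-1839 and miR-451a, which Ago2 cuts in place of Dicer. Of the 16, 15 have an entry of their own, 14 had a read and 2 passed the minimum count. miR-3102-3p had 131, 161, 61, 239, 1053 and 3 reads in the WT, KO, dox 12 h, dox 24 h, RA-treated WT and RA-treated KO libraries. It was lower at 12 h of dox, at -1.08 [-1.53 to -0.65], and, from 3 reads, in RA-treated KO against untreated KO, at -1.82 [-4.33 to -0.47], and against RA-treated WT, at -2.28 [-4.78 to -0.95]. The first and second of these calls ended as CPM of the total, at -0.87 and at -1.12 [-3.64 to 0.23]. miR-1839-5p had 59, 105, 55, 183, 714 and 11 reads in the same order and passed the size rule in none of the 7 comparisons, with 0.97 [0.59 to 1.39] for RA in WT. It passed as CPM of the total for RA in WT, at 1.06, and in KO, at 1.21.

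The miRNAs with the pattern most like each member were found by the root mean square difference of log2 levels, each centred on its mean over the 6 libraries. All patterns share the same libraries and scaling. Each library weighs the same, also RA-treated KO, where miR-330-3p, for example, had 1 read. The patterns were not recomputed without that library. For miR-484 they were miR-296-5p, miR-1249-3p and miR-15b-5p, with differences of 0.118 to 0.145 against a median of 0.75 over the other 350 miRNAs. For miR-320-3p they were miR-24-3p, miR-221-3p and miR-330-3p (0.21 to 0.28, median 0.88). For miR-877-5p they were miR-674-3p, miR-140-3p and miR-151-5p (0.13 to 0.26, median 0.80), and for miR-1981-5p miR-328-3p, miR-700-3p and miR-301b-3p (0.16 to 0.23, median 0.92).

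miR-877-3p lay nearest to miR-669p-5p/miR-669a-5p, miR-466f and miR-466i-3p, at 0.22, 0.26 and 0.29 with a median of 1.17. Names of the miR-466 and miR-669 groups are known from a rodent miRNA cluster in an intron of Sfmbt2. Its own sister arm, miR-877-5p, stood at place 96 of 350, at 0.94, and miR-1981-5p at place 269, at 1.59. In RA-treated KO miR-877-3p had 2 reads, miR-466f 2 and miR-877-5p 4, so these places are known only roughly. miR-320-3p and miR-484 differed by 0.32, which put miR-484 at place 6 from miR-320-3p and miR-320-3p at place 22 from miR-484. miR-484 also stood at place 14 from miR-877-5p, at 0.37.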

How the data were processed

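Per the labels' protocols, small RNA libraries were made from total RNA by adapter ligation, and the gel cut included the band of longer small RNAs as well as miRNAs. The deposited values are whole-number counts per mature miRNA, per the file headers as reads that match 1 entry (unique matches) or several (multi-matches). The aligner, allowed mismatches, miRBase version and genome build: not given in the sources used here. The 5 members had 0 multi-matches.

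Unique-match counts were scaled by TMM (edgeR 4.0.16, R 4.3.3) over the 351 entries with a mean of at least 50, with factors of 1.02, 0.798, 0.922, 0.937, 1.10 and 1.29 (libraries ordered as WT, KO, dox at 12 h, dox at 24 h, RA-treated WT, RA-treated KO). The floor of 3 counts equalled 2.75, 2.13, 2.65, 0.882, 0.448 and 27.8 normalised CPM. Log2 ratios used a prior count of 0.5 and exact conditional binomial intervals, and differences of responses and of arm ratios the delta method. No test was possible with 1 library per group. Intervals and the size rule were tested on simulated Poisson counts, the model that the intervals assume. That simulation cannot show how they hold with PCR duplicates or with spread between libraries. Alternatives were CPM of the total, the median of ratios (DESeq2 1.42.0), CPM leaving out the miR-290 and miR-302 clusters, a minimum of 10, 200 or none, a prior of 2, added multi-matches and, chosen after seeing the data, leaving out RA-treated KO and the scaling-free ratio of miR-484 to miR-320-3p.

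The members and lists were chosen with earlier results of these data known. Named miRNAs are the members, the listed non-canonical miRNAs with a mean of at least 50 or that are a member's other arm, the 3 nearest patterns per member, and those that share a seed. The comparison of hairpins with introns (GENCODE M21) was added after the data were seen.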

Additional observations from a re-analysis of the deposited data

How the results depend on the processing

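No paired analysis was possible because each group has 1 library and the labels give no replicate numbers. Of 329 recomputed values of the members, 317 kept their call and 26 changed sign, none of them a called value. Most were uncalled to begin with, as 4 of the members' 35 ratios passed the size rule. The calls of miR-320-3p, miR-877-3p and miR-1981-5p for RA in KO each ended under at least 1 alternative. The lower level of miR-877-3p with RA in WT held under every alternative that kept it, from -1.89 to -2.13; a minimum of 200 leaves both miR-877 arms out. RA in KO put miR-320-3p at -0.56 as CPM of the total and -0.69 leaving out the miR-290 and miR-302 clusters. The 18 arm shares could not change with multi-matches, because no arm of miR-877, miR-1981 or miR-320 had any. Leaving out RA-treated KO changed no member's call in the comparisons that do not use that library. The members' calls for RA in KO use it, so they could not be recomputed this way. Scaling moved the median of all miRNAs by -0.36 to 0.70 as CPM of the total, -0.08 to 0.25 (0.255) by the median of ratios and -0.35 to 0.72 without the clusters; the cause was not tested. Of 138 counts of higher or lower miRNAs, 44 moved by more than 1.5 times. For untreated KO against WT the split of 43 higher and 54 lower became 24 and 78 as CPM of the total and 25 and 76 without the clusters. For RA in KO the split of 83 and 79 was 126 and 33 as CPM of the total, 91 and 62 with median-of-ratios scaling, and 116 and 41 without the clusters. With RA in both it went from 66 and 67 to 82 and 42, 80 and 47, and 93 and 37 in the same order. For dox at 12 h it went from 15 and 30 to 35 and 13, 22 and 23, and 44 and 9, and at 24 h from 20 and 13 to 31 and 10, 22 and 10, and 37 and 6. For the difference of RA responses it went from 81 and 53 to 131 and 18, 99 and 38, and 140 and 13. A minimum of 200, which tests fewer miRNAs, gave 21 and 32 for untreated KO, 50 and 52 for RA in WT, 42 higher with RA in both, 7 and 16 at 12 h, 11 and 7 at 24 h, 8 higher for 24 h against 12 h and 53 higher for the difference. A minimum of 10 gave 37 higher at 12 h, 38 and 24 at 24 h, and 23 and 14 for 24 h against 12 h. No minimum gave 83 lower for untreated KO, 119 and 157 for RA in WT, 109 lower with RA in both, 51 higher at 12 h, 46 and 31 at 24 h, 24 lower for 24 h against 12 h, and 162 and 83 for the difference. Depth limits miR-877 most: 6 reads in RA-treated KO cannot show whether its arms shifted there.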

Other observations

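Apart from Mir877 and Mir1981, 14 hairpins of the RefSeq table equalled an annotated intron end to end, a list made from the annotation after the data were seen. Their 26 mature entries held 14884 reads over the 6 libraries, against 2553 for both arms of miR-877 and miR-1981, and 13668 of the 14884 were miR-6944-3p, from a whole intron of Dbn1, the gene of the actin-binding protein drebrin. Of the 26 entries 18 had a read and 2 passed the minimum count.

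miR-6944-3p had 1056 reads in untreated WT, 545 in untreated KO, 303 and 1204 at 12 h and 24 h of dox, 10497 in RA-treated WT and 63 in RA-treated KO. Its level in untreated KO was 386 normalised CPM against 969 in untreated WT, a log2 ratio of -1.33 [-1.48 to -1.18], and with RA it was 583 against 1568, a log2 ratio of -1.42 [-1.81 to -1.07]. It was lower in KO by the size rule in both comparisons, in which 27.6% and 37.9% of the 351 miRNAs passed, and it was picked after the data were seen. Against untreated KO it was at -0.53 [-0.74 to -0.32] after 12 h of dox and -0.13 [-0.27 to 0.02] after 24 h, so it was not higher with dox at this scaling, and as CPM of the total these were -0.32 and 0.11. It ranked between 54 and 123 of the 351 miRNAs. With RA it was at 0.69 [0.60 to 0.79] in WT and 0.60 [0.19 to 0.97] in KO, and as CPM of the total it passed the rule in KO, at 1.30. The other, miR-7068-3p, from an intron of Cherp, had 30, 48, 57, 148, 345 and 1 reads in the WT, KO, dox 12 h, dox 24 h, RA-treated WT and RA-treated KO libraries, and passed the size rule in none of the 7 comparisons. From its 1 read in RA-treated KO it passed against RA-treated WT, at -2.03 and -2.32, when scaling used a minimum of 10 or none.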
